A study of Mus musculus with 9 samples.

Results

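The tolerant state was compared with the acute response to lipopolysaccharide (LPS), a cell wall component of Gram-negative bacteria, in the cell line m-ICcl2. The line is of C57BL/6 mouse origin and is labelled as small intestinal epithelium. Arrays were chosen by their treatment labels, which took 6 of the 9 Affymetrix expression arrays of the series, 3 for each state. All of these cells, the controls included, carry the SV40 large T antigen as a transgene, and all had been grown on collagen. Cells of the acute group received LPS from E. coli D31m4 at 100 ng/mL for 6 h. Tolerant cells received the same LPS for 6 h, then spent 90 h in medium without it, and were harvested 96 h after LPS was added. The remaining 3 arrays, from unstimulated cells, carry no culture time in the labels. They show where a level started, and they also enter the level minimum and the estimate of spread in the fit. In the tolerant cells, time in culture and the earlier LPS therefore cannot be told apart. A single immortalised line was used, and the labels call the replicates biological without naming separate cultures, so p-values measure the spread between these arrays, which may be technical in part.

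LPS is bound by CD14 and MD-2 (Ly96) and sensed by Toll-like receptor 4 (TLR4), which signals through MyD88, the IRAK kinases and TRAF6 to the transcription factor NF-kappa-B. NF-kappa-B switches on chemokines and cytokines, and also its own brakes, such as the inhibitor encoded by Nfkbia and the ubiquitin-editing enzyme A20 encoded by Tnfaip3. Cells that have met LPS often respond less to it afterwards, a state known as endotoxin tolerance. In the gut epithelium this state has been tied to life beside commensal bacteria, and loss of IRAK1 protein has been described as one of its marks.

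Levels are given as log2 intensity of the probe set with the highest mean for each gene, and differences as log2 tolerant minus log2 6 h LPS. Of 18193 genes, the 9431 (51.8%) with log2 4 or more on at least 3 of the 9 arrays were tested. A gene is said to rise or fall where limma's moderated test gave a Benjamini-Hochberg adjusted p below 0.05 in the fit without a replicate block. Below log2 4 the values lie near the floor of the method, so a fold against a group whose 3 arrays all lay there is a lower bound, written as at least so many fold. The arrays' medians over tested genes lay between log2 7.62 and 7.84. Replicate 1 stood apart in every condition: the control for the 5′ end of 18S rRNA gave log2 7.27 to 10.24 there, against 3.38 to 5.76 on the other 6 arrays. The part of that difference in the results was not tested beyond the fits with a replicate block and without replicate 1. In the fit with replicate number as a block, which takes out such shared shifts, all 1238 genes called without it were called as well.

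The epithelial label was checked against marker lists. The epithelial markers Krt8, Krt18, Elf3 and Epcam were measured, 4 of 9, as were the intestinal markers Vil1, Cdh17, Lgals4 and Krt20, again 4 of 9. Epcam passed only through its tolerant arrays. The remaining epithelial and intestinal markers did not pass the level minimum, their highest log2 values being 2.81 and 2.55. Summed intestinal marker intensity was 6920 to 7510 on the 6 h arrays and 8910 to 10600 on the tolerant arrays, and epithelial marker intensity 10700 to 17100 and 14900 to 21300. None of the fibroblast, endothelial or leukocyte markers passed the level minimum, their highest log2 values being 3.24, 3.69 and 3.75. Of 9 macrophage markers 4 passed: Cd68, Csf1r, Spi1 and Cd14.

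From 6 h of LPS to the tolerant state 670 genes rose, 7.10% of those tested, and 568 fell, 6.02%. At least 2-fold changes made up 419 of the rises (4.44%) and 309 of the falls (3.28%). With the replicate block 1508 genes were called higher (16.0%) and 1477 lower (15.7%). These shares are the background for the counts of called list members below. The lists and their members were chosen with earlier results of these data known. A list share above the background therefore describes the list and is not separate support. The median difference over all tested genes was 0.01 log2. In such bulk samples a lower level can come from fewer cells that hold a transcript or from less of it per cell, and these cannot be told apart. Every called gene differed in the same direction in all 3 same-numbered pairs of arrays, and the median size of a called difference was 1.08 log2. The calls were made on these same arrays, so the shared direction largely follows from them. Of all tested genes 30.6% were higher and 29.5% lower in all 3 pairs. The arrays of the states did not overlap, with tolerant cells higher, in 15.9% of tested genes and, with tolerant cells lower, in 15.4%. Leaving out a tolerant array lowered the counts to 442 and 324 without replicate 1, 380 and 297 without replicate 2, and 405 and 299 without replicate 3. Fitted on the 6 compared arrays alone, without the unstimulated ones, they were 476 and 377. Without 6 h LPS replicate 2 they were 466 and 387, and without 6 h LPS replicate 3, 599 and 391.

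The level in unstimulated cells showed whether a change was a return or a new departure. Each gene called and at least 2-fold different after values below log2 4 were set to 4 was placed on a scale that runs from 0 at the tolerant level to 1 at the 6 h level. Of 405 such genes that rose, 321 (79.3%) had an unstimulated level at 0.67 or beyond, near the acute one, 75 lay between, and 9 (2.22%) lay at 0.33 or less. Of 283 that fell, 224 (79.2%) had an unstimulated level near the acute one, 35 lay between, and 24 (8.48%) lay near the tolerant level or past it. For 20 of the rising genes all unstimulated and 6 h arrays lay below log2 4, which places them at 1 by construction, and 3 of the falling genes were placed at 0 in the same way from their unstimulated and tolerant arrays. Over genes with all 9 arrays at log2 4 or more, a restriction added after the data were seen, 259 of 338 rising genes (76.6%) and 189 of 234 falling genes (80.8%) had an unstimulated level near the acute one, and 16 of the falling genes (6.84%) lay near the tolerant level. In the test of tolerant against unstimulated cells, which shares the tolerant arrays and called 26.2% of all genes, 279 of the 321 were higher and 217 of the 224 lower. Both sets had been chosen on these arrays for an unstimulated level near the acute one and a tolerant level at least 2-fold away. A tolerant level apart from the unstimulated one follows largely from that choice, so these counts are not separate support. The share of returning falls was 7.41%, 12.8% and 5.36% in replicates 1, 2 and 3 taken singly, and 19.5% without 6 h LPS replicate 3.

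**Figure D1:**
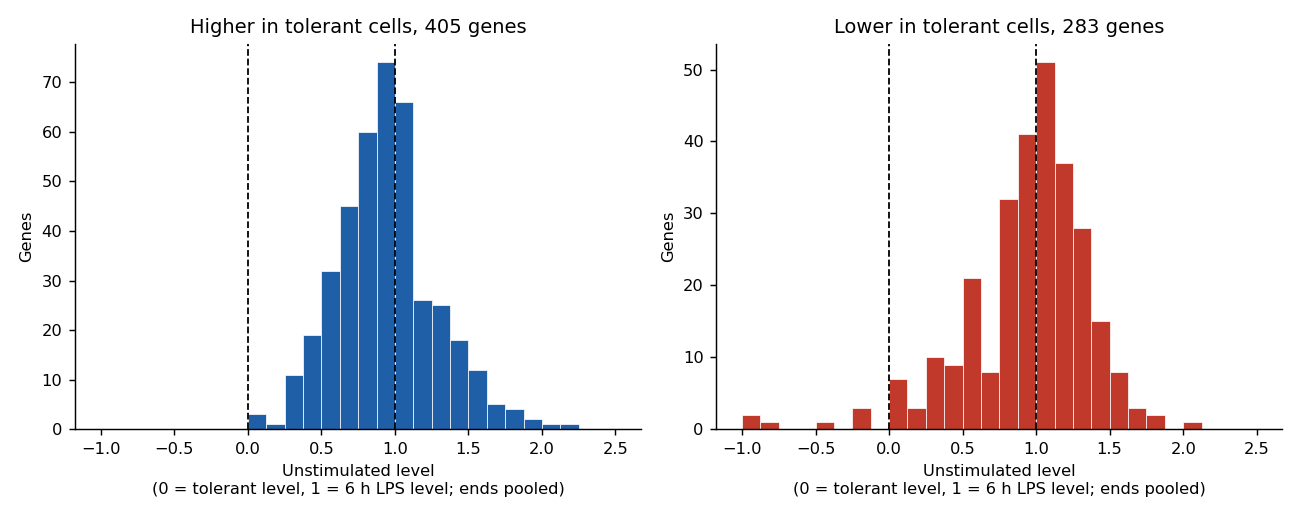
Histograms of where the unstimulated level of each gene lay on a scale from its tolerant level (0) to its 6 h LPS level (1), for 405 genes higher (left) and 283 genes lower (right) in tolerant cells by at least 2-fold; the vertical axis counts genes, and values under -1 are pooled at the left end. Both histograms peak near 1, the 6 h level, and the genes that fell have a small group at or below 0.

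Chemokines subsided most widely of all lists. They are secreted attractants of leukocytes, and 8 of 30 listed were measured. Of these 5 fell and 1 rose, against 6.02% and 7.10% of all tested genes, with a median difference of -1.49 log2. Cxcl5, an attractant of neutrophils, had a log2 intensity of 12.01, 12.01 and 11.82 on the 6 h arrays and 5.10, 5.81 and 6.51 on the tolerant arrays. It fell 70.6-fold (95% interval of the log2 difference -6.87 to -5.41; adjusted p = 2.79e-05), and its tolerant arrays spanned its unstimulated values of 6.16, 5.84 and 5.60. No other gene fell by as large a log2 difference among the 9431 tested.

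Cxcl1, Cxcl2 and Ccl2 came down only part of the way. Cxcl1, a further attractant of neutrophils, read 11.65, 11.33 and 11.71 at 6 h and 9.42, 9.59 and 9.80 in tolerant cells, a 3.9-fold fall (adjusted p = 0.000247), with unstimulated values of 7.38, 7.62 and 7.36. Cxcl2, encoding a close relative, read 7.42, 7.42 and 7.87 and then 5.31, 5.70 and 5.72, a 3.99-fold fall (adjusted p = 0.000837), while its 3 unstimulated arrays lay below log2 4. The groups did not overlap for either gene, which held with tolerant cells lower for 15.4% of all tested genes. The tolerant level of each stayed above the unstimulated one. Ccl2, the monocyte attractant, read 7.41, 7.80 and 7.78 and then 6.30, 6.71 and 6.90. That was a 2.04-fold fall (adjusted p = 0.0139), lost without 6 h LPS replicate 2 (adjusted p = 0.0502). Its unstimulated arrays, like those of Cxcl2, lay below log2 4. Measured from the fitted unstimulated mean, 75.9% of the log2 rise of Ccl2 at 6 h was left in tolerant cells, against 52.3% for Cxcl1, 53.6% for Cxcl2 and -1.01% for Cxcl5. For Cxcl2 and Ccl2 the starting level lay near the floor, so these shares are approximate.

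Ppbp, the precursor of platelet basic protein and another chemokine, fell below its starting level. It read 9.17, 9.09 and 8.92 at 6 h and 6.37, 6.82 and 6.74 in tolerant cells, a 5.34-fold fall (adjusted p = 0.000176), and its unstimulated values were 7.71, 8.15 and 7.61. The tolerant arrays were the lowest of the 9 (adjusted p = 0.0035 against unstimulated cells, which shares them). Cxcl10, an interferon-inducible chemokine, went the other way, from 4.16, 4.18 and 4.16 to 5.01, 5.59 and 5.62, a 2.36-fold rise (adjusted p = 0.00373). Cx3cl1 differed by 0.55 log2 and Ccl27a by -0.17 log2 without passing the test, and another probe set of Cx3cl1 differed by -0.39.

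Without a block limma called 6 genes at 6 h against unstimulated cells, 0.0636% of those tested, all higher. They were Cxcl5, Cxcl1, Cxcl2, Ccl2, Neurl3 and Nfkbiz, and all 6 fell afterwards. RefSeq promoters (mouse build GRCm38.p6) were at hand for 3 of them, and all 3 windows of 250 bases before the annotated start held the NF-kappa-B pattern of GGG, any 2 bases, then TTTCC, on one of the strands. The pattern stood in 1.65% of the windows of all 27025 genes with a promoter, in 1.72% of 7776 tested genes and in 14 of 467 genes that fell (3%). The windows are shown because these genes carry the acute response that subsided; they run 5′ to 3′ on the gene's strand, with matches on either strand in capitals.
Cxcl1 (chr5:90890995-90891244, strand +): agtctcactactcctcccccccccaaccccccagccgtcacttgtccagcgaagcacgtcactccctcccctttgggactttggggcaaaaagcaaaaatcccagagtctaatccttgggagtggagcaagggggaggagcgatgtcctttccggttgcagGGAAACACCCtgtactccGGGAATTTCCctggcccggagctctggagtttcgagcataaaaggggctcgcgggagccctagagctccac
Cxcl2 (chr5:90903649-90903898, strand +): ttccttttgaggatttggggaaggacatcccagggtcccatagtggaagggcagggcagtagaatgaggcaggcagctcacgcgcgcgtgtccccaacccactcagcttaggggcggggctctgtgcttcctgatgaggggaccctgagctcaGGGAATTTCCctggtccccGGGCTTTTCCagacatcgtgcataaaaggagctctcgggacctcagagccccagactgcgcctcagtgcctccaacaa
Neurl3 (chr1:36273426-36273675, strand -): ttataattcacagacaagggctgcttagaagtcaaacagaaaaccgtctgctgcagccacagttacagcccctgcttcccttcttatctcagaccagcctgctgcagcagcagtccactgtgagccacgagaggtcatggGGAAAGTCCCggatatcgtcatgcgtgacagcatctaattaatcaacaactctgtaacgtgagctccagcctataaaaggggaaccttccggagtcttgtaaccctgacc

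In Cxcl1 the matches lay at -89 to -80 and -71 to -62 from the start, in Cxcl2 at -97 to -88 and -78 to -69, and in Neurl3 at -110 to -101. The windows of Cxcl1 and Cxcl2 both held GGGAATTTCC on the gene's strand, and the second match of Cxcl2 was GGGCTTTTCC. A match describes letters in a window and is not evidence of binding.

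The regulator genes Nfkbiz and Cebpd, members of the NF-kappa-B list, fell, as did Neurl3, which was named for its call at 6 h. Nfkbiz, which encodes an atypical nuclear inhibitor-of-kappa-B protein needed for some secondary response genes, read 11.08, 10.86 and 10.65 at 6 h and 9.01, 9.13 and 9.40 in tolerant cells, a 3.2-fold fall (adjusted p = 0.00228). Its other probe sets at the level minimum differed by -1.87 and -0.23 log2, so 1 was close to the set tested and 1 was not. Cebpd, a transcription factor of the acute-phase response, read 8.02, 6.95 and 7.12 and then 5.41, 4.73 and 5.34, a 4.6-fold fall (adjusted p = 0.00267) to levels that overlapped its unstimulated values of 5.67, 5.07 and 5.21. Neurl3, which encodes a ubiquitin ligase, read 4.93, 5.41 and 5.31 and then 3.02, 3.06 and 2.93, a fall of at least 2.33-fold (adjusted p = 0.00016). For all 3 genes the groups were separate, which held with tolerant cells lower for 15.4% of all tested genes.

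Tlr2, the receptor for bacterial lipoproteins, read 4.72, 5.28 and 6.07 at 6 h and 3.52, 3.34 and 3.58 in tolerant cells, a fall of at least 2.56-fold (adjusted p = 0.00425). Zc3h12a, which encodes Regnase-1, an RNase that degrades inflammatory mRNAs, read 4.52, 4.87 and 5.68 and then 3.76, 3.56 and 3.79, a fall of at least 2.03-fold (adjusted p = 0.0132). Unstimulated and tolerant arrays of both genes all lay under log2 4, so they entered the test only through the 6 h arrays. Replicate 3 was the highest of these for both, and the call for Zc3h12a was lost without tolerant replicate 2. Csf1, the macrophage growth factor, fell 1.75-fold (adjusted p = 0.00688) from 9.15, 8.98 and 9.10 to 8.36, 8.13 and 8.32, beside unstimulated values of 8.26, 8.17 and 8.33.

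Neat1 and Tfrc, called higher at 6 h with the replicate block, ended below their starting level. Neat1, the long noncoding RNA that scaffolds nuclear paraspeckles, read 12.20, 11.61 and 11.11 at 6 h and 7.94, 8.65 and 8.69 in tolerant cells, a 9.28-fold fall (adjusted p = 0.000389). Tfrc, the transferrin receptor that brings iron into cells, read 10.11, 10.12 and 9.44 and then 6.25, 7.61 and 7.50, a 6.82-fold fall (adjusted p = 0.00267). Their unstimulated arrays lay between the states, at 9.65 to 10.18 for Neat1 and 7.97 to 8.93 for Tfrc. Both were lower in tolerant than in unstimulated cells (adjusted p = 0.00996 and 0.0335), a test that uses the same tolerant arrays. Of the 14 measured genes of the paraspeckle and nuclear RNA list, Neat1 alone passed in the fit without the block; Malat1 differed by -0.05 log2.

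**Figure D2:**
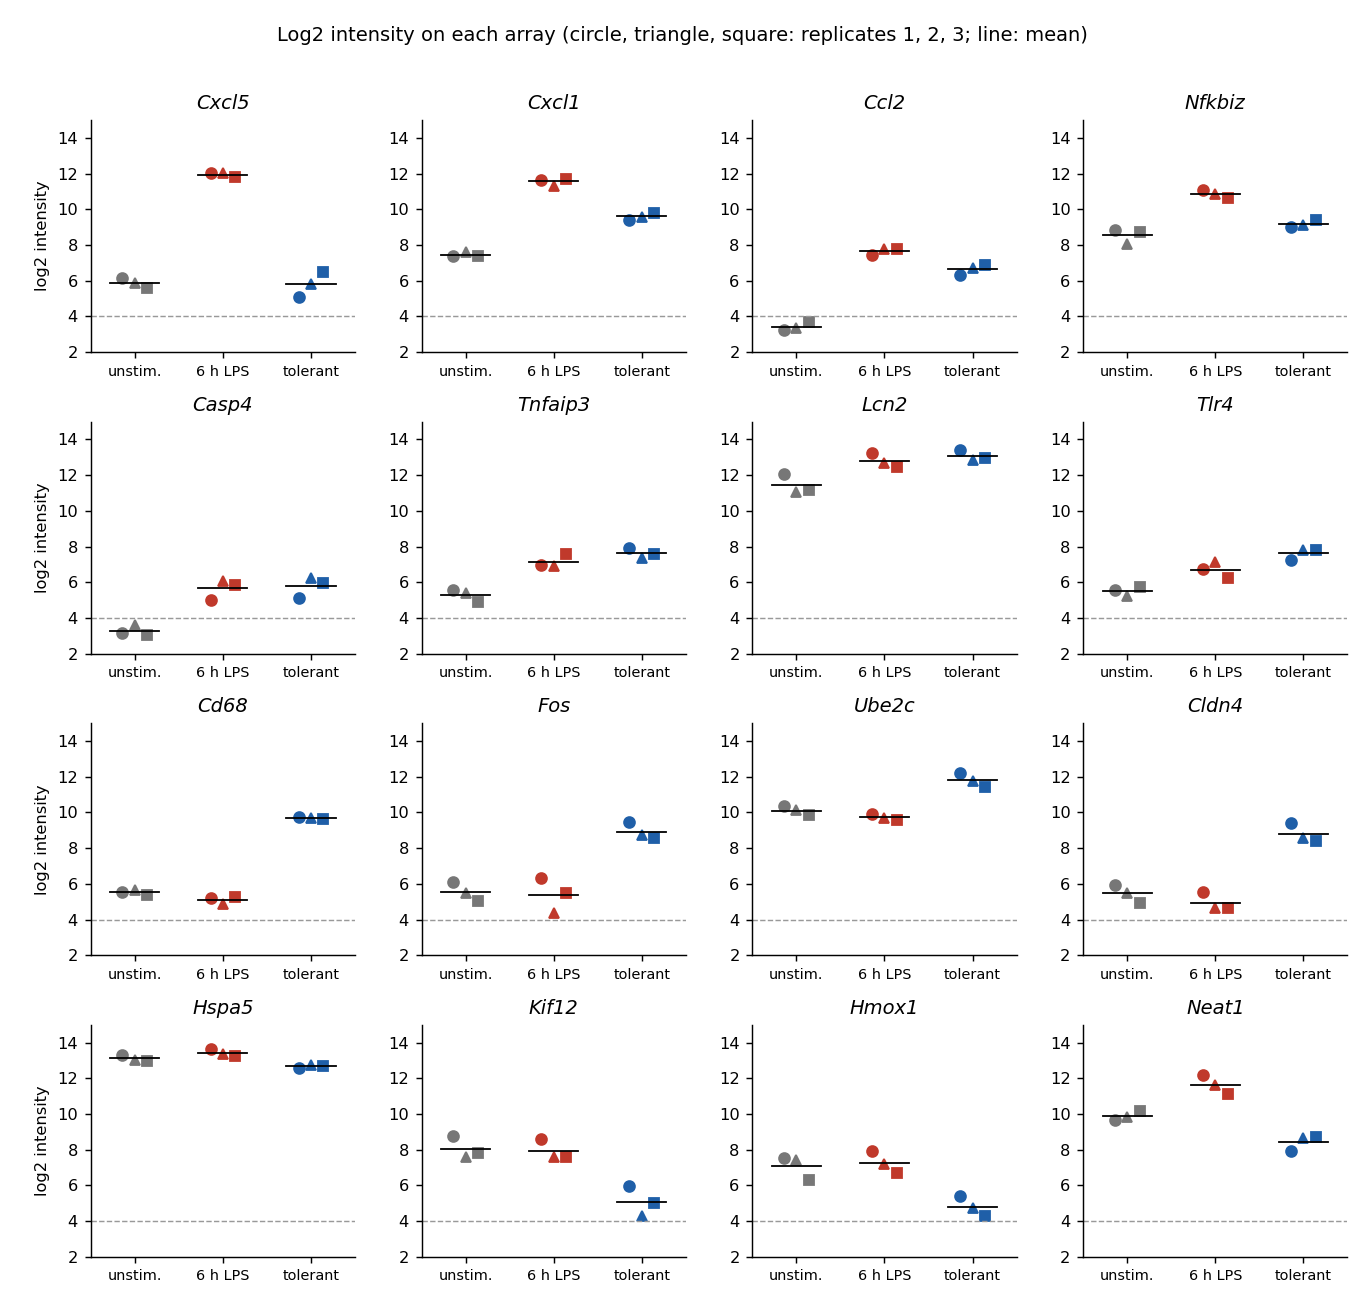
Log2 intensity of 16 genes on each of the 9 arrays, with 3 unstimulated (grey), 3 6 h LPS (red) and 3 tolerant (blue) arrays; circles, triangles and squares mark replicates 1, 2 and 3, black lines the means and the dashed line the level minimum of log2 4. Cxcl5 returned to its unstimulated range, Cxcl1 and Ccl2 remained above it, and Cd68, Fos, Ube2c and Cldn4 were highest on the 3 tolerant arrays.

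Persistence was judged by the interval of the difference, since a p above the threshold does not show that a level stayed. A gene counted as persistent where, with the replicate block, it was at least 2-fold changed and called at 6 h, was called in the same direction in tolerant cells against unstimulated cells, and had a 95% interval of tolerant minus 6 h within 1 log2 of 0. With the block 24.0% of genes were called at 6 h and 48.6% in tolerant cells, each against the same unstimulated arrays. Of 237 genes higher at 6 h by that rule 121 persisted, 29 were called lower again and 17 were called still higher. Of 18 genes lower at 6 h, 9 persisted and 5 were called higher again. The count of 130 persistent genes was not stable. It was 0 without the block, where few genes were called at 6 h, 1 from replicates 2 and 3 only, 8 with no filter on low values and 59 with probe sets averaged. Leaving out an array gave 4, 1 and 398 without unstimulated replicates 1, 2 and 3, 2, 2 and 469 without 6 h LPS replicates 1, 2 and 3, and 64, 5 and 11 without tolerant replicates 1, 2 and 3.

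Casp4, which encodes the cytosolic LPS sensor caspase-11, had the largest rise at 6 h among persistent genes. It read 5.03, 6.08 and 5.86 at 6 h and 5.14, 6.21 and 5.97 in tolerant cells, while all unstimulated arrays lay below log2 4. Each tolerant array lay within 0.13 log2 of the 6 h array of the same number, and the mean difference was 0.12 log2 (95% interval -0.33 to 0.57 with the block). Lcn2, singled out after its values were seen, is the siderophore-binding lipocalin of mucosal defence. It read 13.23, 12.70 and 12.46 and then 13.40, 12.86 and 12.99 (interval -0.05 to 0.63 with the block), above its unstimulated values of 12.06, 11.07 and 11.17. Casp1, the inflammatory caspase of the same family, differed by -0.69 log2 without passing (adjusted p = 0.288, or 0.0114 with the block).

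Besides Casp4, the persistent genes with the largest rises at 6 h had varied roles. The clone-named gene 2010315B03Rik differed by -0.07 log2 between the states. Rlim and Senp6, a ubiquitin ligase and a SUMO protease, differed by -0.05 and -0.03 log2. Tet2, which oxidises methylated DNA, the autophagy gene Rb1cc1, the p53 regulator Mdm4, and Ap4e1 differed by between -0.23 and 0.29 log2. For Rlim, 6 h LPS replicate 3 read 7.86 beside unstimulated values of 7.70, 6.94 and 7.59, so that array was close to the unstimulated ones. Its other probe sets at the level minimum differed between the states by 0.20, 0.25 and 0.55 log2. For Senp6 the same array read 6.97, beside unstimulated values of 6.03, 6.57 and 6.83.

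Genes of the pathway that senses LPS mostly did not pass the test between the states. Of 16 measured TLR receptor and signalling genes 1 fell, Tlr2, and with the block 1 was called higher and 4 lower. Of all tested genes 6.02% fell, and with the block 16.0% were higher and 15.7% lower. Of the 16 genes, 2 passed the level minimum only through their 6 h arrays, Tlr2 among them. They could only come out lower. Tlr4 read 6.76, 7.12 and 6.22 at 6 h and 7.26, 7.83 and 7.81 in tolerant cells, a difference of 0.93 log2 (adjusted p = 0.0523, or 0.0277 with the block). Its tolerant arrays were the highest of the 9, and its other probe sets at the level minimum differed by 1.61 and 0.43 log2. Myd88, the adaptor, read 5.94, 5.68 and 5.90 and then 5.46, 4.68 and 5.29, a difference of -0.70 log2 (adjusted p = 0.136, or 0.0188 with the block). The interval for Cd14 was -0.71 to 0.53 log2, for Irak1 -1.21 to 0.50 and for Ly96 -1.83 to 0.40, which leaves room for a 2-fold decrease of Irak1 or Ly96 transcripts. Traf6 differed by -0.60 log2 (adjusted p = 0.0731, or 0.0235 with the block) with all tolerant arrays below log2 4.

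The main brakes on NF-kappa-B did not pass the test. Tnfaip3 read 6.96, 6.90 and 7.60 at 6 h and 7.93, 7.34 and 7.57 in tolerant cells, against 5.54, 5.39 and 4.88 in unstimulated cells (interval of tolerant minus 6 h -0.14 to 1.06 log2). The 6 h and tolerant arrays overlapped, and both lay apart from the unstimulated arrays. Nfkbia read 12.00, 12.69 and 12.64 and then 12.18, 12.50 and 12.58 (interval -0.63 to 0.58 log2), and its other probe sets differed by -0.16, -0.37, -0.42 and, on the dimmest, -0.93 log2. The list of NF-kappa-B subunits and close partners had 18 measured genes. Birc2, which encodes the ubiquitin ligase cIAP1, rose 1.91-fold (adjusted p = 0.0133), lost without tolerant replicate 3, while Cebpd and Nfkbiz fell; the list's median was 0.19 log2, and with the block 7 were called higher and 3 lower. Of 17 measured negative regulators of TLR signalling 4 rose and 1 fell, and 7 and 1 with the block. The shares of all tested genes were 7.10% rising and 6.02% falling, or 16.0% and 15.7% with the block. Dusp1, the phosphatase that switches off p38 and JNK, rose 2.72-fold from 8.29, 8.10 and 8.17 to 9.76, 9.65 and 9.48 (adjusted p = 0.000421). Atf3, a transcriptional repressor of cytokine genes, rose 2.72-fold as well (adjusted p = 0.00338), and Zfp36, which destabilises cytokine mRNAs, 2.25-fold (adjusted p = 0.0237). The call for Zfp36 was lost without 6 h LPS replicates 2 or 3 and without tolerant replicates 1 or 2. Otud7b rose on its brightest probe set, but its other probe sets differed by 0.21, -0.26 and -0.05 log2.

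Acute-phase and mucosal defence genes had 0 calls by limma in 6 measured. At an unadjusted p below 0.05 it found 3 lower, and with the block 3 lower. Of all tested genes 26.7% had such an unadjusted p in either direction, and 15.7% were called lower with the block. Of 15 measured interferon response genes 3 rose, and 8 were called higher and 2 lower with the block. The shares of all tested genes were 7.10% rising, and 16.0% higher and 15.7% lower with the block. Isg20, an antiviral exonuclease, read 9.24, 8.88 and 9.27 at 6 h and 11.07, 10.82 and 10.68 in tolerant cells, a 3.3-fold rise (adjusted p = 0.000417). Ifngr1, a chain of the interferon-gamma receptor, rose 2.57-fold (adjusted p = 0.00245) and Rsad2, the antiviral protein viperin, 2.15-fold (adjusted p = 0.0129), a call lost without tolerant replicates 2 or 3.

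The tolerant cells also carried transcripts of cytokines and sensors that lay near or below log2 4 at 6 h. Of 6 measured cytokine genes 3 rose and 1, Csf1, fell, against 7.10% and 6.02% of all tested genes. Il24, a cytokine of the interleukin-10 family that acts on epithelia, read 3.48, 4.16 and 4.23 at 6 h and 7.95, 8.78 and 8.38 in tolerant cells, a 21.3-fold rise with 1 of 3 arrays at 6 h below log2 4 (adjusted p = 8.96e-05). Il7, a growth factor for lymphocytes, and Il33, an epithelial alarmin, rose by at least 1.87-fold and 1.75-fold (adjusted p = 0.000454 and 0.0038), and both entered the test only through their tolerant arrays. Nlrp10, an NLR family gene, lay between 2.60 and 2.65 at 6 h and read 7.22, 7.39 and 7.08 in tolerant cells, a rise of at least 9.36-fold (adjusted p = 1.43e-06). Siglecg, an inhibitory sialic-acid receptor, read 3.72, 3.48 and 3.52 and then 8.70, 7.78 and 7.66, a rise of at least 16.5-fold (adjusted p = 5.03e-05). The unstimulated arrays of Nlrp10 and Siglecg lay below log2 4 too. For Il24, Il7, Il33, Nlrp10 and Siglecg the tolerant arrays lay above the other 6. For all but Il24 this follows from entering the test only through the tolerant arrays. The tolerant arrays lay above those at 6 h in 15.9% of all tested genes.

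Cd68, a lysosomal glycoprotein abundant in macrophages, was the largest rise among genes above the level minimum on all 6 arrays. It read 5.23, 4.85 and 5.25 at 6 h and 9.73, 9.67 and 9.61 in tolerant cells, a 23.7-fold rise (adjusted p = 2.52e-06). Its unstimulated values, 5.52, 5.65 and 5.38, lay just above the 6 h arrays and far below the tolerant ones. The other macrophage markers did not pass the test without the block, and 2 of them were lower with it. Csf1r differed by -1.48 log2 (adjusted p = 0.0987, or 0.00022 with the block), Spi1 by -1.19 (adjusted p = 0.134, or 0.0211 with the block) and Cd14 by -0.09. The summed intensity of the macrophage list was 930 to 2500 at 6 h and 1370 to 1750 in tolerant cells, which overlap. Of 26 measured lysosomal genes 3 rose, against 7.10% of all tested genes, and the list's median was -0.03 log2. They were Cd68, the protease gene Ctsc (1.37 log2, adjusted p = 0.00503) and Gla (0.96 log2, adjusted p = 0.0469). Gla was called in 2 of 9 omissions of an array and differed by 0.32 log2 on its other probe set at the level minimum. Unblocked limma made 0 calls in 38 respiratory chain genes, 29 ribosomal protein genes and 23 sterol synthesis genes. At an unadjusted p below 0.05 it found 4 respiratory chain genes lower, 2 ribosomal protein genes higher, and 2 sterol synthesis genes higher and 4 lower. With the block 1, 2 and 2 genes of these lists were called higher and 4, 1 and 5 lower. Of all tested genes 26.7% had an unadjusted p below 0.05 in either direction. With the block 16.0% of them were called higher and 15.7% lower.

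**Figure D3:**
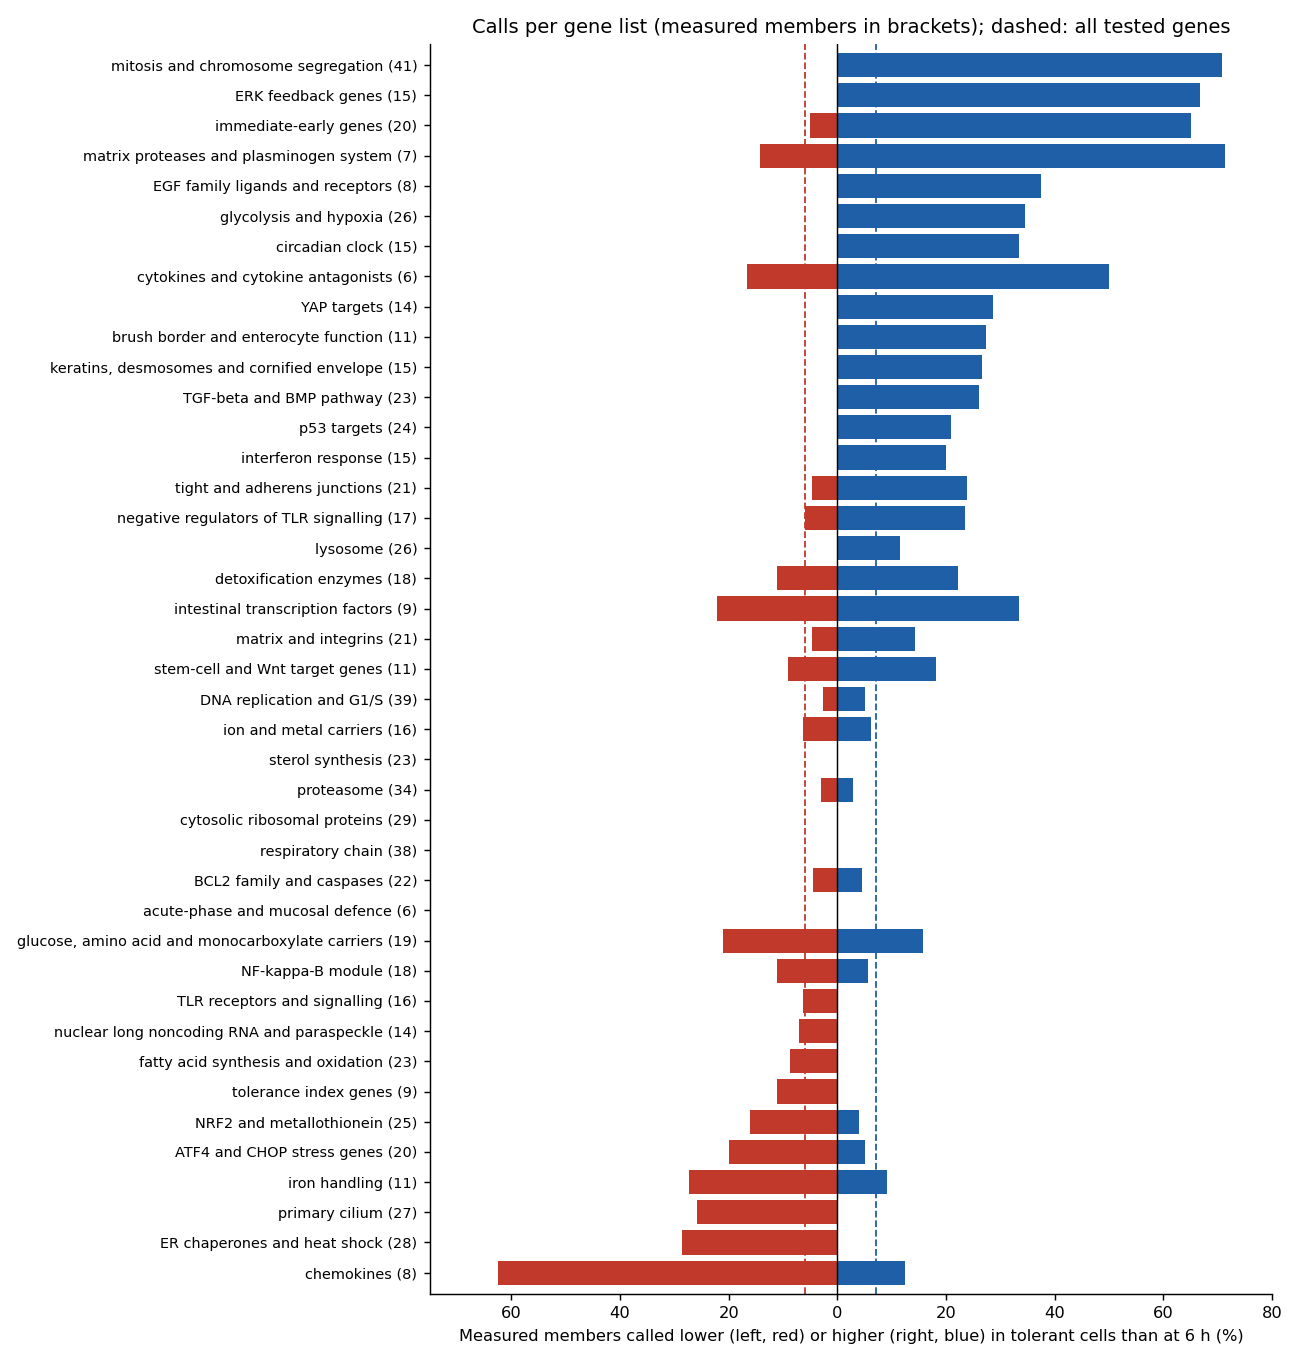
Percentage of the measured members of each gene list that rose (blue, right) or fell (red, left) in tolerant cells relative to 6 h LPS, with measured members in brackets and dashed lines at the shares over all tested genes (7.10% and 6.02%). Mitosis, ERK feedback, immediate-early and protease lists stand farthest to the right and chemokines farthest to the left.

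Immediate-early genes, transcription factors that growth factors and stress switch on within minutes, rose widely. The test was passed upwards by 13 of 20 measured and downwards by 1, against 7.10% and 6.02% of all tested genes. The median was 1.31 log2, and 11 to 13 rose when any 1 array was left out. Of the 20, 1 passed the level minimum only through its tolerant arrays, so it could only come out higher. Fos read 6.35, 4.36 and 5.46 at 6 h and 9.49, 8.71 and 8.56 in tolerant cells, an 11.5-fold rise (adjusted p = 0.00237). Egr1 read 7.97, 8.21 and 8.56 and then 10.88, 10.91 and 10.78, a 6.12-fold rise (adjusted p = 8.96e-05). Maff, a small Maf factor, rose 6.19-fold (adjusted p = 0.000247). At 6 h the Fos and Egr1 arrays overlapped the unstimulated ones, at 5.04 to 6.11 and 8.28 to 8.58.

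Genes of the ERK feedback list rose with them. It holds brakes that the ERK kinase pathway induces on itself, and also Dusp1 and the ETS factors Etv4 and Etv5. Of 15 measured 10 rose and none fell, against 7.10% and 6.02% of all tested genes, with a median of 1.25 log2. With the block 13 rose, against 16.0% of all tested genes. The unblocked count depended on single arrays: it was 6 without unstimulated replicate 2, 4 and 5 without 6 h LPS replicates 2 and 3, and 4 and 5 without tolerant replicates 1 and 2. Dusp6, the ERK phosphatase, rose 2.83-fold (adjusted p = 0.00271) to 11.63, 11.31 and 11.04, and no 6 h array reached the lowest of these. Dusp4 rose 4.12-fold (adjusted p = 0.000647), Dusp5 5.77-fold (adjusted p = 0.0361) and the ETS factor Etv5 4.33-fold (adjusted p = 0.0255). The call for Dusp5 held in 4 of 9 omissions of an array, and that for Etv5 in 5 of 9, both being lost without 6 h LPS replicates 2 or 3 or tolerant replicates 1 or 2. Of 8 measured genes of the EGF family 3 rose. The ligand Hbegf read 7.84, 6.79 and 7.17 and then 10.51, 9.56 and 9.51, a 6.02-fold rise (adjusted p = 0.00695); the receptors Egfr and Erbb3 rose by 0.96 and 1.12 log2, each call being lost without any 1 tolerant array, and the other probe sets of Egfr at the level minimum differed by 1.04, 0.31 and 0.01.

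Targets of YAP, the coactivator that responds to cell shape and contact, rose in 4 of 14 measured and fell in none. With the block 7 were higher. The shares of all tested genes were 7.10% rising, or 16.0% with the block. Ccn2, a matricellular protein, read 9.03, 8.76 and 9.03 at 6 h and 12.41, 12.01 and 11.90 in tolerant cells, an 8.99-fold rise (adjusted p = 0.000107). Its relative Ccn1 rose 4.67-fold (adjusted p = 8.96e-05) and Ankrd1 4.41-fold (adjusted p = 0.000421). The factors themselves, Yap1 and Wwtr1, differed by 0.33 and -0.17 log2 without a call. In the TGF-beta and BMP pathway 6 of 23 measured rose, 9 with the block, and none fell. Of the 23, 2 passed the level minimum only through their tolerant arrays, so they could only come out higher. The BMP targets Id1 and Id3 rose 3.23-fold and at least 1.94-fold (adjusted p = 0.00743 and 0.00169), and Id3 entered the test only through its tolerant arrays.

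Among lists with 20 or more measured genes, mitosis had the largest share that rose, and DNA replication genes were near the share over all genes. Of 41 measured mitosis and chromosome segregation genes 29 rose and none fell, with a median of 1.22 log2; 38 were higher with the block, 33 from replicates 2 and 3 only, and 20 without tolerant replicate 2, the lowest count on leaving out an array. The medians within the 3 pairs were 1.35, 1.13 and 1.13, and 40 of 41 genes were higher in every pair, against 30.6% of all tested genes. Of 39 measured replication and G1/S genes 2 rose and 1 fell, with 6 and 1 with the block and a median of 0.22 log2. For both lists the shares of all tested genes were 7.10% rising and 6.02% falling, or 16.0% and 15.7% with the block. The difference between the lists was not tested, and both were chosen with earlier results of these data known.

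Ube2c, which encodes the ubiquitin-conjugating enzyme of the anaphase-promoting complex, read 9.92, 9.67 and 9.58 at 6 h and 12.21, 11.77 and 11.45 in tolerant cells, a 4.25-fold rise (adjusted p = 0.000645). Cenpa, the centromeric histone, read 6.69, 7.16 and 7.21 and then 9.32, 9.40 and 9.08, a 4.74-fold rise (adjusted p = 0.000183). Cenpf, a kinetochore protein of G2 and M phase, rose 7.09-fold (adjusted p = 0.012) with 1 of 3 arrays at 6 h below log2 4. Anln, needed for the cleavage furrow, Cdc25c, the phosphatase that triggers mitosis, and Hmmr, a spindle protein, rose 4.09-fold, 4.04-fold and 3.93-fold (adjusted p = 0.000701, 0.00453 and 0.00373), with 1 of 3 arrays of Cdc25c at 6 h below log2 4. The unstimulated levels of these 6 genes lay near the 6 h levels, at 0.76 to 1.24 on the scale from the tolerant level at 0 to the 6 h level at 1. In the replication list, the cyclin genes Ccnd1 and Ccne1 moved apart. Ccnd1, of early G1, rose 1.92-fold (adjusted p = 0.00416), and Ccne1, of the G1/S transition, fell 2.18-fold (adjusted p = 0.0127), from 5.84, 5.86 and 6.35 to 4.68, 4.71 and 5.30. The call for Ccne1 was lost without tolerant replicate 2, and its other probe set differed by -0.58 log2, against -1.12 on the one used. The other probe sets of Ccnd1 differed in the same direction, by 1.08 and 1.61 log2 against 0.94 on the one used. The polymerase clamp Pcna differed by -0.17 log2 (interval -0.49 to 0.14) and the helicase subunit Mcm2 by 0.29 (interval -0.57 to 1.15).

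Promoters of mitosis genes are known for a cell cycle homology region, searched here as TTTGAA, and for CCAAT boxes. In windows of 250 bases before the start, TTTGAA stood on either strand in 15 of 34 mitosis genes with a RefSeq promoter (44.1%), against 12.2% of tested genes and 18.3% of all. CCAAT stood in 27 of the 34 (79.4%), against 40.6% of tested genes and 37.5% of all. Among the 24 mitosis genes with a promoter that rose the shares were 37.5% and 75%, so the matches do not set these apart within the list. The windows of Ube2c and of Ccnb2, a mitotic cyclin that rose 2.85-fold (adjusted p = 0.000645), are shown as examples that hold both, chosen after their values were seen, with all matches in capitals.
Ube2c (chr2:164769679-164769928, strand +): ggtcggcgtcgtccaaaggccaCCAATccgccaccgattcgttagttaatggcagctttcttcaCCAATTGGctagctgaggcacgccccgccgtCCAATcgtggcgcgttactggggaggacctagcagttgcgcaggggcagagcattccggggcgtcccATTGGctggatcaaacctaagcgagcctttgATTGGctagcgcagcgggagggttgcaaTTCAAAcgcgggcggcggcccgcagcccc
Ccnb2 (chr9:70421555-70421804, strand -): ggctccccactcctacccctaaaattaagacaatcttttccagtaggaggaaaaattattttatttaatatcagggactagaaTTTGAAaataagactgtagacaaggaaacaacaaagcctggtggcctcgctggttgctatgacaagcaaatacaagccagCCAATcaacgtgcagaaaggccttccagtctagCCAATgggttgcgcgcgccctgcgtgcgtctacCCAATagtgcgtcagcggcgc

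In Ube2c the TTTGAA match lay on the opposite strand at -29 to -24, with 6 CCAAT matches on either strand upstream of it, of which 2 overlap. In Ccnb2 the 3 CCAAT matches lay at -87 to -83, -54 to -50 and -21 to -17, and the TTTGAA match farther away, at -167 to -162.

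**Figure D4:**
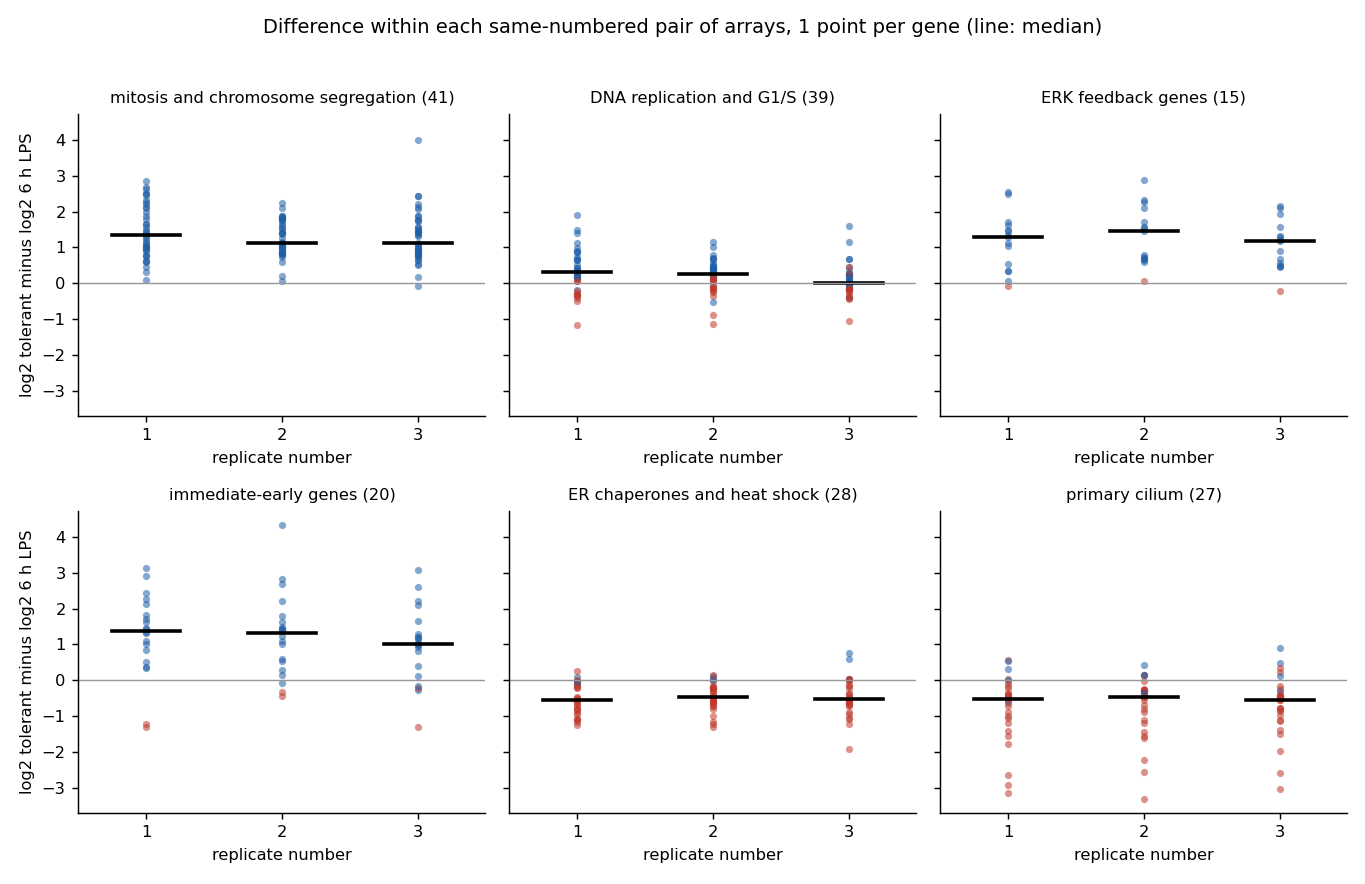
Difference in log2 intensity, tolerant minus 6 h LPS, within each same-numbered pair of arrays (horizontal axis) for the measured members of 6 gene lists, 1 point per gene, blue where its mean difference is positive and red where it is not; black lines are medians. The mitosis medians of 1.35, 1.13 and 1.13 lie far above those of the replication list at 0.30, 0.25 and -0.00, and the chaperone and cilium medians lie below 0 in every pair.

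Barrier, surface and matrix genes were among the largest rises. Cldn4, a claudin of tight junctions, read 5.52, 4.62 and 4.62 at 6 h and 9.40, 8.57 and 8.38 in tolerant cells, a 14.5-fold rise (adjusted p = 0.000389). Sprr1a, a small proline-rich protein of stressed epithelia, lay between 8.66 and 9.01 and then read 13.14, 13.03 and 12.71, a 16.8-fold rise (adjusted p = 1.23e-05). Of 21 measured junction genes 5 rose and 1 fell, against 7.10% and 6.02% of all tested genes, and 3 rose without tolerant replicates 2 or 3. Epcam, an epithelial adhesion molecule, rose at least 3.11-fold (adjusted p = 0.00019) with every unstimulated and 6 h array below log2 4, so that this marker of the cell type was near the floor outside the tolerant cells. Krt18, a keratin of simple epithelia, rose 2.07-fold (adjusted p = 0.0127), and Krt8, its partner, differed by -0.03 log2. Of 7 measured matrix protease and plasminogen system genes 5 rose and 1 fell, against 7.10% and 6.02% of all tested genes. Of the 7, 3 rose without 6 h LPS replicate 2 or tolerant replicates 1 or 2. Mmp7, the matrilysin that activates mouse alpha-defensins, read 4.41, 4.74 and 5.33 and then 8.48, 8.64 and 8.92, a 14.4-fold rise (adjusted p = 0.000209), and Plat, tissue plasminogen activator, rose 6.11-fold (adjusted p = 0.000247). The metalloprotease gene Adamts1 fell 2.35-fold (adjusted p = 0.00148).

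Of 11 measured brush border and enterocyte function genes 3 rose and none fell, with 6 higher and 1 lower with the block and a median of 0.51 log2. The shares of all tested genes were 7.10% rising and 6.02% falling, or 16.0% and 15.7% with the block. S100g, the intestinal calcium-binding protein calbindin-D9k, lay below log2 4 on all unstimulated and 6 h arrays and read 6.97, 8.10 and 8.44 in tolerant cells, a rise of at least 14.3-fold (adjusted p = 8.96e-05). Cdh17, the liver-intestine cadherin, rose 3.73-fold (adjusted p = 0.0085), and Guca2b, which encodes the gut peptide uroguanylin, 3.4-fold (adjusted p = 0.0108). Hnf4a, a master transcription factor of enterocytes from another list, read 9.02, 8.71 and 8.91 at 6 h and 8.19, 7.73 and 7.53 in tolerant cells, a 2.09-fold fall (adjusted p = 0.0253). That call was lost without 6 h LPS replicates 1 or 3 and without tolerant replicates 2 or 3. Its unstimulated values, 10.11, 9.29 and 9.46, were the highest of the 9. Of 11 measured stem-cell and Wnt target genes 2 rose and 1 fell, against 7.10% and 6.02% of all tested genes. Prom1, a membrane protein of progenitor cells, fell 1.81-fold (adjusted p = 0.00435), and Sox9, a crypt transcription factor, rose 2.26-fold (adjusted p = 0.00286), as did Clu, 3.01-fold (adjusted p = 0.0207), a call lost without 6 h LPS replicates 1 or 2 or tolerant replicates 2 or 3.

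Among metabolic and clock genes, 9 of 26 measured glycolysis and hypoxia genes rose and none fell, with 12 higher with the block. The shares of all tested genes were 7.10% rising and 6.02% falling, and 16.0% higher with the block. Of the 26 genes, 1 passed the level minimum only through its tolerant arrays, so it could only come out higher. The count was 5 without 6 h LPS replicate 2 or tolerant replicates 1 or 2, and 3 without tolerant replicate 3. Hk2, the inducible hexokinase, rose 2.79-fold (adjusted p = 0.00435), and the glucose transporter gene Slc2a1 rose 5.1-fold (adjusted p = 0.0222) from a wide 6 h range of 9.48, 11.17 and 11.84 to 12.79, 13.23 and 13.53. The call for Slc2a1 was lost without tolerant replicates 2 or 3. Hif1a, the hypoxia factor, differed by -0.21 log2. Of 15 measured clock genes 5 rose, against 7.10% of all tested genes, and 3 without unstimulated replicates 2 or 3, 6 h LPS replicate 3 or tolerant replicates 2 or 3. Of the 15, 1 passed the level minimum only through its tolerant arrays. The rises were led by Bhlhe40 at 4.45-fold (adjusted p = 0.000362) and Nr1d2 at 2.97-fold (adjusted p = 0.00378). On the other probe set of Nr1d2 the difference was 0.97 log2, against 1.57 on the one used. The core clock gene Arntl differed by -0.36 log2 and Per2 by 0.38 without a call. The hour of harvest is not given in the labels.

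Genes that fell to new low levels included chaperones of the endoplasmic reticulum. They fold secreted proteins and are induced together by the unfolded protein response. Of 28 measured chaperone and heat shock genes 8 fell and none rose, with a median of -0.48 log2, and 12 fell with the block. The shares of all tested genes that fell were 6.02%, and 15.7% with the block. The count without the block was fragile: 3 and 4 without 6 h LPS replicates 2 and 3, and 3, 1 and 0 without tolerant replicates 1, 2 and 3. Of the 28, 20 were lower in every pair, against 29.5% of all tested genes. The 8 genes, all of the reticulum, were Sdf2l1, Sel1l, Dnajc3, Manf, Pdia6, Hspa5, Creld2 and Herpud1. The cytosolic heat shock genes Hspa8, Hsp90aa1 and Hspa1b differed by -0.14, 0.25 and -0.24 log2. The fall did not span all list members tied to the reticulum. Of those not called, Calr, Pdia3 and Pdia4 were lower in every pair. Xbp1 differed within the pairs by 0.09, 0.06 and 0.03 log2 and Dnajb9 by -0.13, 0.12 and 0.60. The values were -0.07, -0.02 and -0.23 for Edem1 and -0.10, -0.31 and 0.03 for Canx.

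Hspa5, which encodes BiP, the main chaperone of the reticulum, read 13.66, 13.39 and 13.27 at 6 h and 12.58, 12.75 and 12.68 in tolerant cells, a 1.7-fold fall (adjusted p = 0.0178) whose call was lost without any 1 tolerant array. Sdf2l1, a stress-induced partner of BiP, read 5.49, 5.84 and 5.83 and then 4.69, 4.68 and 3.91, a 2.45-fold fall with 1 tolerant array below log2 4 (adjusted p = 0.0234), lost without 6 h LPS or tolerant replicates 2 or 3. Creld2, singled out for its promoter, fell 1.63-fold (adjusted p = 0.0222), from 11.23, 11.27 and 11.51 to 10.70, 10.62 and 10.56. In each of these 3 genes the arrays of the states were separate, which held with tolerant cells lower for 15.4% of all tested genes. For Sel1l, whose product works in the disposal of misfolded proteins, 1 other probe set differed by -1.24 log2, close to the -1.08 of the one tested, and the remaining 3 by -0.23, -0.15 and 0.23.

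Many chaperone promoters carry the endoplasmic reticulum stress element, searched on both strands as CCAAT, any 9 bases, then CCACG, so that each match holds a CCAAT box. It stood in 8 of 24 genes of the list with a RefSeq promoter (33.3%), and in 4 of the 7 among those that fell: Creld2, Dnajc3, Hspa5 and Pdia6. It stood in 0.154% of tested genes and in 0.13% of all. The windows of Hspa5 and Creld2 are shown with the element in capitals, on the gene's strand in Hspa5 and on the opposite strand in Creld2.
Hspa5 (chr2:34771840-34772089, strand +): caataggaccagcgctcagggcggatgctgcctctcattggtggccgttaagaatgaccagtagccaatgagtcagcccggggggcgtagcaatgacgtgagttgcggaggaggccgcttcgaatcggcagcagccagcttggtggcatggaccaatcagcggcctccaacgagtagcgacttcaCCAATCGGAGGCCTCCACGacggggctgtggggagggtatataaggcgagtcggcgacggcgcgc
Creld2 (chr15:88819396-88819645, strand +): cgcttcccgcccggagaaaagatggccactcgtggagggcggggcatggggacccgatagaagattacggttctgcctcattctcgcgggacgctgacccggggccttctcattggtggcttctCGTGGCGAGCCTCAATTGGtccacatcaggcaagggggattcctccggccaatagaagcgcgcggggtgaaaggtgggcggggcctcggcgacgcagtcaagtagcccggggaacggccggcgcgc

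The element lay at -65 to -47 in Hspa5 and at -126 to -108 in Creld2. The list includes genes long used to define this element, so its share there describes the list and does not set apart the members that fell.

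Genes of the amino acid stress response governed by ATF4 and CHOP were split. Of 20 measured 4 fell and 1 rose, 8 and 4 with the block, and 1 fell without tolerant replicates 2 or 3. The shares of all tested genes were 6.02% falling and 7.10% rising, or 15.7% and 16.0% with the block. Slc7a5, a carrier of large amino acids, read 8.37, 7.10 and 7.39 at 6 h and 6.14, 6.00 and 5.71 in tolerant cells, a 3.18-fold fall (adjusted p = 0.0149), lost without tolerant replicates 2 or 3. Psph, the last enzyme of serine synthesis, fell 2.15-fold (adjusted p = 0.00228). Ddit3, which encodes CHOP itself, rose 5.14-fold (adjusted p = 0.000283) on its brightest probe set, but its other probe set differed by -0.73 log2. Among carriers, Slc16a10, which moves aromatic amino acids, fell 4.09-fold (adjusted p = 0.00228) and Slc7a7 2.66-fold (adjusted p = 0.00545). Slc5a10, a sodium-linked sugar carrier, rose at least 11.6-fold (adjusted p = 6.52e-05). Of 19 measured sugar, amino acid and monocarboxylate carriers, 1 passed the level minimum only through its tolerant arrays, so it could only come out higher.

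Primary cilium genes fell as well. The cilium is a sensory antenna built by intraflagellar transport (IFT) particles and the BBSome coat and taken down before mitosis. Of 27 measured genes 7 fell and none rose, against 6.02% and 7.10% of all tested genes, with a median of -0.57 log2. With the block 13 fell, against 15.7% of all tested genes. The unblocked count was 4 without 6 h LPS replicate 3 or without tolerant replicate 1. Kif12, a kinesin, read 8.62, 7.60 and 7.60 at 6 h and lay between 4.28 and 5.97 in tolerant cells, a 7.23-fold fall (adjusted p = 0.00562). Ttc30b, an IFT subunit, read 6.44, 6.20 and 6.19 and then 3.31, 3.65 and 3.15, a fall of at least 4.85-fold (adjusted p = 0.000141). Ift88, a core IFT subunit, fell at least 2.03-fold (adjusted p = 0.000389), and the BBSome genes Bbs7 and Bbs4 fell 4.14-fold and 3.09-fold (adjusted p = 0.00449 and 0.0175) with 2 and 1 tolerant arrays below log2 4. The call for Bbs4 was lost without 6 h LPS replicate 3 or tolerant replicates 1 or 3. Ttc8, a further BBSome subunit named by size and outside the list, fell 5.73-fold (adjusted p = 0.000176), from 8.36, 7.91 and 8.03 to 5.66, 5.51 and 5.58.

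Antioxidant genes fell in part, and detoxification genes moved in both directions. Of 25 measured genes of the NRF2 and metallothionein list 4 fell and 1 rose, and with the block 11 fell and 3 rose. The shares of all tested genes were 6.02% falling and 7.10% rising, and 15.7% and 16.0% with the block. Without the block, 2 genes of the list fell on leaving out 6 h LPS replicate 2 or tolerant replicates 1 or 3. Hmox1, the heme oxygenase, read 7.92, 7.22 and 6.68 at 6 h and 5.39, 4.76 and 4.28 in tolerant cells, a 5.51-fold fall (adjusted p = 0.00669). The metallothionein gene Mt1 fell 2.06-fold (adjusted p = 0.00802). Of 18 measured detoxification genes 4 rose and 2 fell, with 4 and 5 with the block, against the shares of all tested genes just given. The list's median was 0.17 log2. Without 6 h LPS replicate 1 the counts were 3 and 4. Ddc, the aromatic amino acid decarboxylase, read 6.49, 6.59 and 7.19 and then 3.28, 4.43 and 4.19, a 6.91-fold fall (adjusted p = 0.000839), and Cbr2, a carbonyl reductase, fell 5.99-fold (adjusted p = 0.000403), with 1 and 2 tolerant arrays below log2 4. Uox, the urate oxidase, went the other way, from 4.83, 5.97 and 6.06 to 9.11, 9.50 and 9.30, a 12.8-fold rise (adjusted p = 0.000328). Akr1b8, an aldo-keto reductase, rose 1.69-fold (adjusted p = 0.0362), a call kept in 2 of 9 omissions of an array. Cyp3a13 and Sult1a1, of the cytochrome P450 and sulfotransferase families, rose by at least 1.44-fold and 1.56-fold (adjusted p = 0.00698 and 0.0102), both measured only through their tolerant arrays and not called once values below log2 4 were set to 4. Cpt1a, outside that list, which controls the entry of fatty acids into mitochondria, fell 2.13-fold (adjusted p = 0.00125). Its other probe sets differed by -0.62 and -0.64 log2, against -1.09 on the one used.

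A small set of genes was low at 6 h and came back. These 9, among those that rose, had unstimulated levels near the tolerant ones. None was called between tolerant and unstimulated cells by limma without the block. With the block 8 were called lower at 6 h, as were 12.5% of all tested genes. The genes were chosen by their levels on these same arrays, so both counts largely follow from the choice. Gjb1, the gap junction protein connexin 32, read 4.89, 4.14 and 4.67 at 6 h and 6.11, 5.66 and 5.56 in tolerant cells, a 2.31-fold rise (adjusted p = 0.0111), beside an unstimulated mean of 5.68. The remaining 8 were Asrgl1, Cyp2d26, Gchfr, Kif18b, Klhdc8a, Lrrc75a, Nans and Ppp1r13l. All 9 were singled out after their values were seen.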

How the data were processed

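RNA of m-ICcl2 cells was measured on 9 Affymetrix mouse arrays, 3 per condition. The authors deposited 1 table of linear intensity values for 45101 probe sets, and the submitters' processing notes name GCRMA as the normalisation (version not stated there). Here log2 was taken of the deposited values, and 64 control probe sets were set aside. Through GEO's platform annotation 34945 probe sets named 1 gene, 932 named several and 9160 none; only the first kind was used. The probe set with the highest mean over 9 arrays stood for each of 18193 genes, and a gene was tested where 3 or more arrays reached log2 4. Array number limits the precision.

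Means per condition were fitted over all 9 arrays (6 residual degrees of freedom) with lmFit and eBayes in limma 3.58.1 (R 4.3.3), two-sided, with Benjamini-Hochberg adjustment at 0.05. Every adjusted p in the text is limma's from that fit unless a block is named. The labels give the replicate numbers but no shared culture or day. Same-numbered arrays deviated from their condition means together (correlations 0.157 to 0.844 over genes), so numbers were taken to pair the arrays. Differently numbered arrays of replicates 2 and 3 also deviated together (0.214 to 0.731), whereas replicate 1 deviated against both (-0.743 to -0.375), so the check mainly sets replicate 1 apart. For unstimulated replicate 3 the correlation was 0.731 with 6 h LPS replicate 2 and 0.157 with 6 h LPS replicate 3. A fit with replicate number as a block was run beside the unblocked one. On simulated data with 9431 genes the unblocked fit found 30 of 100 true 2-fold and 86 of 100 true 4-fold changes, with 4.13% false calls. The simulated arrays were drawn independently, without the shifts that same-numbered arrays share here. These rates therefore check the code and do not give the error rates of the real arrays.

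Genes were named by these rules: the 15 largest rises and falls above log2 4, the 8 largest lower bounds each way, genes called at 6 h, up to 6 called members of each list, the chemokines and tolerance index genes, and the 8 largest persistent genes. Others, including list members that did not pass, were named after their values were seen. Members and the 49 gene lists were chosen with earlier results of these data known. Promoters came from RefSeq. Alternatives were other pairings, filters, probe-set rules, normalisations, variance settings and the omission of each array. Raw scanner files were not analysed here.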

Additional observations from a re-analysis of the deposited data

How the results depend on the processing

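With 3 arrays per condition, counts of calls moved with the design. Genes called higher and lower, 670 and 568 as reported, came to 1508 and 1477 with the replicate block, 1314 and 1274 with the block on the 6 compared arrays, 1396 and 1375 with replicate number as a random effect, 1599 and 1593 with replicate 1 set against the others, and 1055 and 1071 from replicates 2 and 3 only. On the 6 arrays without a block 377 were lower and 476 higher, and with a 1.2-fold threshold in the test 388 were higher and 277 lower. Leaving out 1 array gave 380 to 682 higher and 297 to 600 lower. Arrays centred on their medians gave 612 higher and 719 lower. The share of lower genes with an unstimulated level near the tolerant one was 5.43% to 19.5% on leaving out 1 array, and the share of higher genes near the 6 h level 67.3% to 89.4%. Persistent genes, 130 as reported, numbered 0 without the block, 1 from replicates 2 and 3 only, 8 with no filter on low values, 59 with probe sets averaged and 1 to 469 on leaving out 1 array. The cause of these differences was not tested. Of 197 genes named by the rules 179 were called, 111 of them under every alternative and 119 under every omission of 1 array. No named gene changed direction where it was called in the main or the alternative fit. Sign changes of genes called in neither were not counted. Block and random-effect fits kept all 1238 calls, except 1237 with the block on 6 arrays.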
